A study of Drosophila melanogaster with 4 samples.

Results

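The genes described here encode the protein parts of the spliceosome and of the machinery that assembles its small nuclear ribonucleoproteins (snRNPs). There are 35 of them, listed by name for what their proteins do, out of 17023 genes counted in whole *Drosophila* ovaries. All 35 matched an identifier in the count tables and all 35 passed the filter on low counts, which left 9115 genes to test. The data are mRNA-seq of 4 libraries. Of these, 2 came from ovaries in which *UAS-Dicer2;NosGAL4* drove both *bam* RNAi and *aramis* RNAi (>*bam* RNAi; *aramis* RNAi) and 2 from ovaries in which it drove *bam* RNAi alone (>*bam* RNAi), the developmental control. The *NosGAL4* driver is active in the germline, so both knockdowns were directed at germ cells, while the libraries hold RNA of germ cells and somatic cells together. *UAS-Dicer2*, which raises the efficiency of RNAi, and the *bam* RNAi construct are shared by both genotypes. Ovaries were dissected from yeast-fed females 1 to 3 days after eclosion, and polyadenylated RNA was made into directional libraries.

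Introns are removed by the spliceosome, which assembles on each pre-mRNA from the U1, U2 and U4/U6.U5 snRNPs. A ring of Sm proteins surrounds the RNA of each of these snRNPs except U6, and in animals the SMN complex loads that ring onto the RNA in the cytoplasm before the particle returns to the nucleus. U1 marks the splice site at the start of the intron and U2, with the SF3 proteins, marks the branch point. The tri-snRNP and the Prp19 complex then build the catalytic center. *bag of marbles* (*bam*) is required in the female germline for the cystoblast, the daughter of the stem cell, to differentiate, and its loss fills the ovary with undifferentiated germ cells. *aramis*, listed under its current symbol *ais*, encodes a DEAD-box RNA helicase of ribosome production.

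Total counts were 11882367 and 12434452 in >*bam* RNAi; *aramis* RNAi, against 12074934 and 13348602 in >*bam* RNAi. The targeted gene *ais* had 149 and 161 counts in >*bam* RNAi; *aramis* RNAi, against 454 and 507 in >*bam* RNAi. This is 2.59-fold lower, with a log2 fold change of -1.37 (SE 0.113, edgeR quasi-likelihood test, adjusted p = 3.3e-04). *bam*, targeted in both genotypes, had 16 and 17 counts, against 35 and 25 in >*bam* RNAi, a difference that was not called (adjusted p = 0.262). Germline markers were also lower. Of 17 germline markers tested, 16 fell and 1 (*tud*, not called when libraries were scaled by their totals) rose, with a median log2 fold change of -1.45, and their TPM (transcript abundance, counts scaled for exon length and library) summed to 824 and 694 in >*bam* RNAi; *aramis* RNAi, against 1765 and 1726 in >*bam* RNAi. Of 15 markers of somatic ovary cells, 8 rose and 2 (*tj* and *upd1*) fell, with a median of 0.53, and summed TPM of 1579 and 1377, against 1220 and 1098 in >*bam* RNAi. All 8 muscle sheath markers and all 4 haemocyte markers rose, with medians of 0.96 and 1.52, as did 2 of 4 fat body markers. Their TPM summed to 28684 and 37045 for muscle, 619 and 534 for haemocytes and 425 and 468 for fat body, against 20569 and 17079, 238 and 189, and 114 and 109 in >*bam* RNAi. Without replicate 1 or replicate 2 of >*bam* RNAi, 14 and 13 germline markers were still called lower and all 4 haemocyte markers higher, while 5 and 3 somatic ovary markers were called higher and 0 muscle and 0 fat body markers were called. No marker tested was at 0 in every library. Of 9 eggshell and yolk markers, 8 fell, 6 of them by more than 4-fold, and *Yp3* was not called. The median log2 fold change of the 9 was -4.27, and -4.92 and -3.11 without replicate 1 or replicate 2 of >*bam* RNAi. Their TPM summed to 6036 and 2116 in >*bam* RNAi; *aramis* RNAi, against 19580 and 67681 in >*bam* RNAi. Both >*bam* RNAi libraries thus held more of this RNA, but unevenly, and replicate 2 of >*bam* RNAi stood apart. In bulk samples like these, fewer cells of a type and less RNA per cell cannot be told apart, and the part of the germline share in the values that follow was not tested.

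The mRNAs of splicing factors were lower when *aramis* RNAi was added to *bam* RNAi. Of the 35 genes, 26 fell, 0 rose and 9 did not pass an adjusted p of 0.05 (edgeR, Benjamini-Hochberg over all 9115 genes). Among all genes tested, 50.4% passed this threshold, 25.0% as lower and 25.4% as higher. The falls were small. They ranged from 1.22-fold to 2.35-fold, only *Smn*, *SmG*, *SmB* and *SmF* fell by more than 2-fold, and 0 genes fell by more than 4-fold, against 2.47% of all genes tested. At an unadjusted p under 0.05 the counts of genes higher and of genes past 4-fold were also 0, and DESeq2 gave 0 for both. The median log2 fold change was -0.44, with quartiles of -0.63 and -0.29, against -0.02 for all genes, with quartiles of -0.44 and 0.47. No member fell as far as *ais* or as far as the median germline marker. In 33 of the 35 genes both >*bam* RNAi; *aramis* RNAi libraries were below both >*bam* RNAi libraries in CPM (counts scaled to library size) adjusted by TMM (trimmed mean of M-values), a separation in this direction that 40.0% of all genes tested also showed. The exceptions were *Prp38* and *Prp18*. Together the 35 genes held 2735 ± 80.7 TPM in >*bam* RNAi; *aramis* RNAi and 4362 ± 191 TPM in >*bam* RNAi (SD, n = 2 each).

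**Figure D1:**
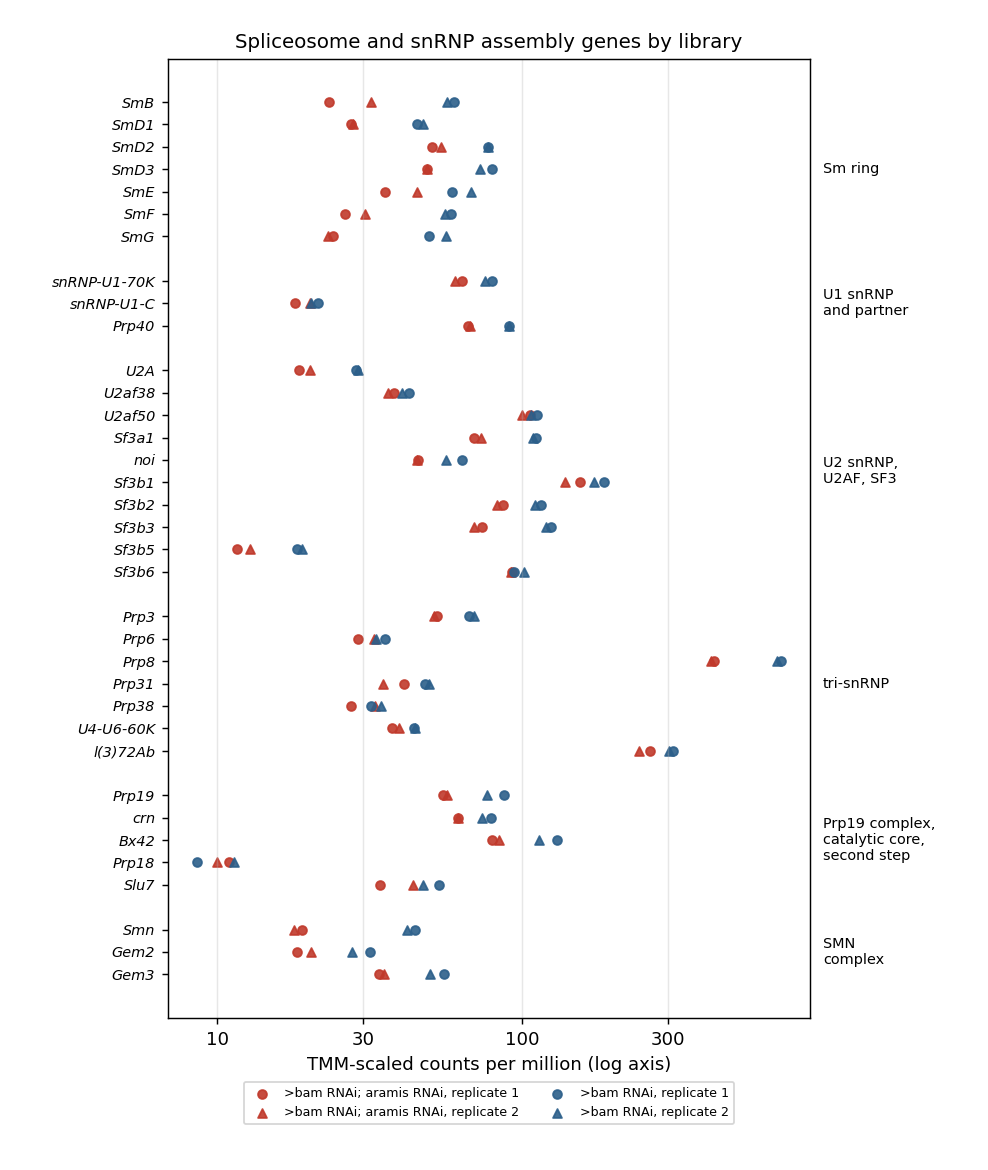
TMM-scaled CPM of each gene in each library, on a log axis, with genes grouped by role. Red symbols are the 2 >*bam* RNAi; *aramis* RNAi libraries and blue symbols the 2 >*bam* RNAi libraries. Red lies left of blue for 33 of 35 genes, with *Prp38* and *Prp18* overlapping.

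The count of falls depended on having both >*bam* RNAi libraries. With either of them left out, most of the 26 member calls were lost, as were most of the 2278 calls of all genes as lower. Log2 fold changes without replicate 1 and without replicate 2 were -1.19 and -1.27 for *Smn*, and -0.27 and -0.37 for *crn*. With all libraries they were -1.23 and -0.32. Leaving out replicate 1 or 2 of >*bam* RNAi; *aramis* RNAi cost fewer calls, of members and of all genes alike. In these fits the lone library is assumed to vary like the other pair. *SmD1*, *SmD3*, *SmF*, *SmG*, *Sf3a1*, *Sf3b3*, *Prp8* and *Smn* were called in all of these fits, but each only narrowly without a >*bam* RNAi library. Their calls do not set them sharply apart from members that narrowly missed the threshold there, such as *SmD2*. TPM is scaled to the library and not by TMM, and a fit scaled to library totals alone placed the median gene lower by 0.194 on the log2 scale, so falls read from TPM are larger than those of the test. That fit called 33 of the 35 genes lower, and its split of calls over all genes was 3346 lower and 1684 higher, against 2278 lower and 2312 higher with TMM. The fold changes given here are from the TMM-scaled test unless a TPM value is named.

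**Figure D2:**
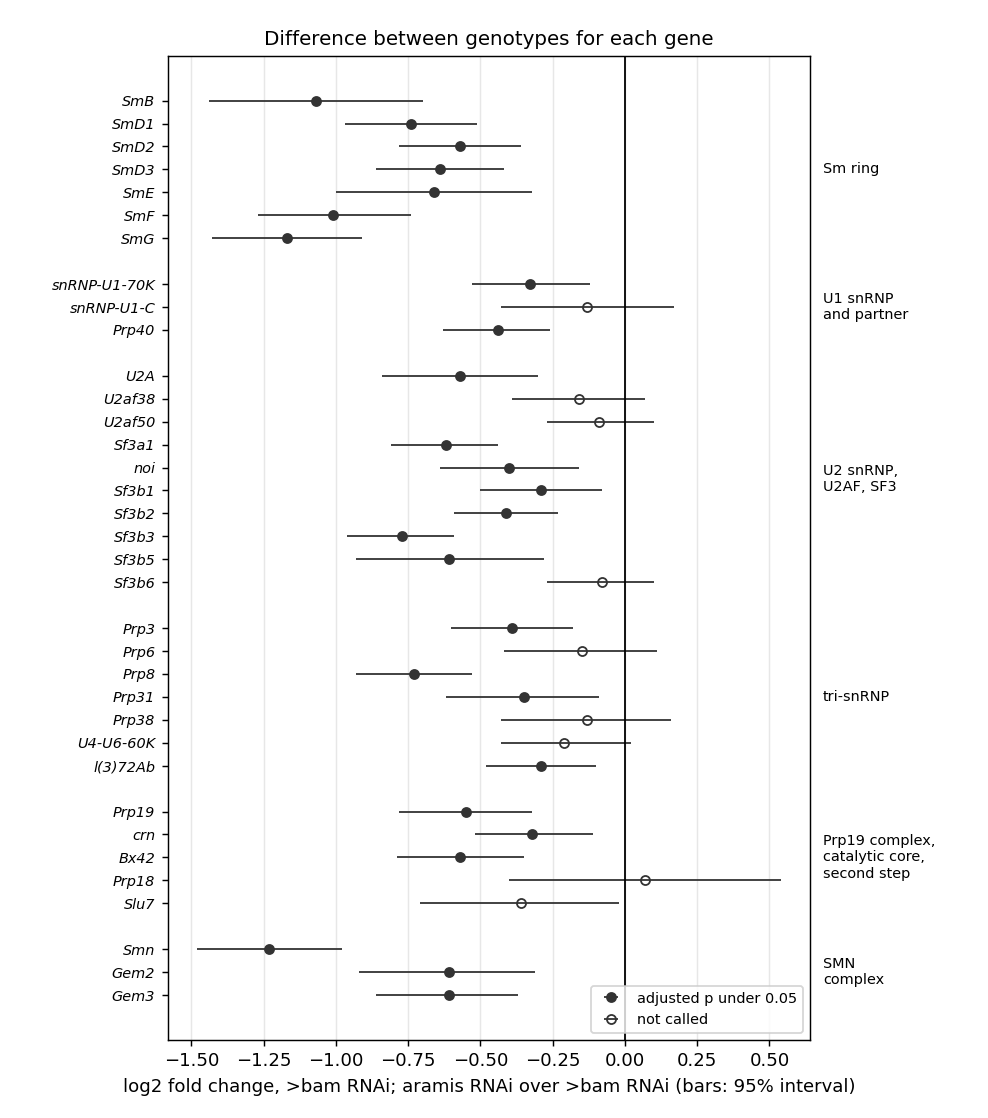
Log2 fold change of each gene in >*bam* RNAi; *aramis* RNAi over >*bam* RNAi, with 95% intervals from the edgeR fit. Filled points have an adjusted p under 0.05. Of 35 points, 34 lie below 0, and the farthest left is *Smn* at -1.23.

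All 7 genes of the Sm ring, the shared core of the spliceosomal snRNPs, were lower in >*bam* RNAi; *aramis* RNAi. *SmG* had 272 and 261 counts in >*bam* RNAi; *aramis* RNAi, against 641 and 800 in >*bam* RNAi, a log2 fold change of -1.17 (SE 0.110, adjusted p = 4.5e-04). *SmB*, whose protein pairs with SmD3 in the ring, had 265 and 363 counts, against 773 and 805 in >*bam* RNAi (log2 fold change -1.07, SE 0.154, adjusted p = 0.00177). For *SmF*, which joins the ring together with SmE and SmG, the counts were 298 and 347, against 757 and 792 in >*bam* RNAi (log2 fold change -1.01, SE 0.112, adjusted p = 7.2e-04). In these 3 genes every >*bam* RNAi; *aramis* RNAi library was far below both >*bam* RNAi libraries. The other 4 fell less. *SmD1* had 313 and 317 counts, against 587 and 672 in >*bam* RNAi, a log2 fold change of -0.74 (SE 0.0965). *SmE*, *SmD3* and *SmD2* had log2 fold changes of -0.66, -0.64 and -0.57 with adjusted p between 0.00179 and 0.00905. Without replicate 1 or without replicate 2 of >*bam* RNAi, 4 of the 7 genes were called, the same *SmD1*, *SmD3*, *SmF* and *SmG* each time.

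The Sm proteins enter the ring in 1 copy each, so the levels of their mRNAs can be set side by side per length. In TPM, the ring summed to 902 ± 18.1 in >*bam* RNAi; *aramis* RNAi and 1734 ± 38.4 in >*bam* RNAi (SD, n = 2 each), a 1.92-fold difference. *SmE* was highest in both >*bam* RNAi; *aramis* RNAi libraries, at 162 and 192 TPM, and had 291 and 318 TPM in >*bam* RNAi. *SmF* had 134 and 144 TPM in >*bam* RNAi; *aramis* RNAi, against 321 and 290 in >*bam* RNAi, where it was level with *SmE* within the spread of the replicates. *SmD1* was lowest in 3 of the 4 libraries and *SmB* in replicate 1 of >*bam* RNAi; *aramis* RNAi, with 71.8 TPM. The highest level was 2.26 and 2.27 times the lowest in >*bam* RNAi; *aramis* RNAi, against 2.01 and 2.02 times in >*bam* RNAi, and the length of the longest transcript gave the same ratios.

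**Figure D3:**
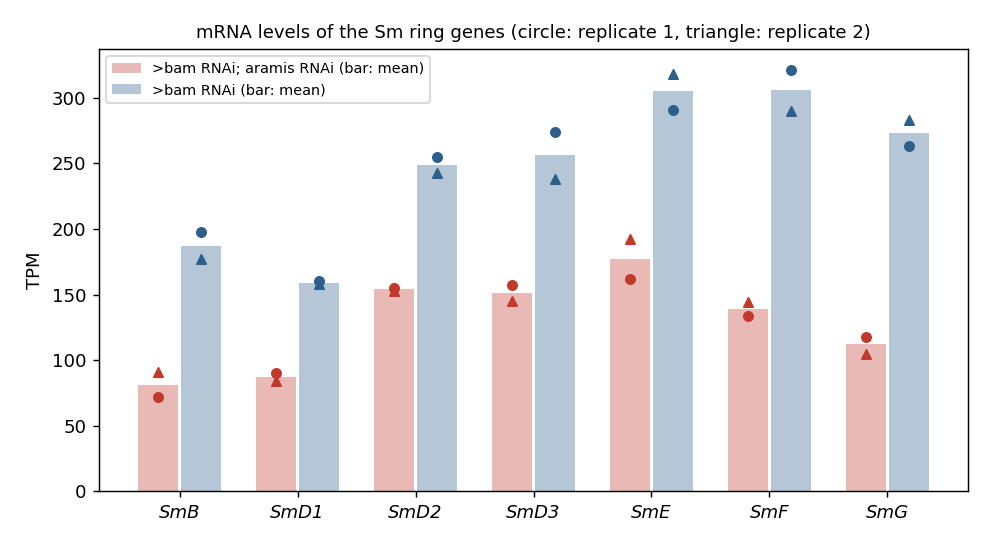
TPM of the 7 Sm ring genes. Bars are means of 2 libraries, circles replicate 1 and triangles replicate 2, with >*bam* RNAi; *aramis* RNAi in red and >*bam* RNAi in blue. Every red point lies below every blue point of the same gene, such as *SmG* at 112 against 273 TPM and *SmD1* at 87.4 against 159 TPM.

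The SMN complex, which recognizes the snRNA and closes the Sm ring on it, includes the gene with the largest fall among the 35, *Smn*. *Smn*, the ortholog of the human gene lost in spinal muscular atrophy, had 215 and 202 counts in >*bam* RNAi; *aramis* RNAi, against 574 and 596 in >*bam* RNAi. Its log2 fold change was -1.23 (SE 0.106, 95% interval -1.48 to -0.98, adjusted p = 3.6e-04), a 2.35-fold fall, and 5.69% of all genes tested had a lower fold change. The replicates of each genotype lay close together and the genotypes were well apart. *Gem2*, whose protein holds the Sm proteins before they close on the RNA, had 208 and 231 counts, against 409 and 393 in >*bam* RNAi (log2 fold change -0.61, SE 0.127, adjusted p = 0.00747). *Gem3*, a DEAD-box helicase of the complex, had 384 and 399 counts, against 717 and 711 in >*bam* RNAi (log2 fold change -0.61, SE 0.102, adjusted p = 0.00329). The summed level of the complex was 96.1 ± 3.81 TPM in >*bam* RNAi; *aramis* RNAi and 195 ± 19.7 TPM in >*bam* RNAi (SD, n = 2 each). Of the 3 genes only *Smn* was still called without replicate 1 of >*bam* RNAi, and *Smn* and *Gem3* without replicate 2.

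Of the 3 genes of the U1 snRNP and its partner, 2 fell. *Prp40*, which in yeast links U1 at the start of the intron to the branch point, had 753 and 762 counts in >*bam* RNAi; *aramis* RNAi, against 1171 and 1293 in >*bam* RNAi (log2 fold change -0.44, SE 0.0779, adjusted p = 0.00397). *snRNP-U1-70K*, which binds the U1 RNA itself, had 723 and 683 counts, against 1030 and 1078 in >*bam* RNAi (log2 fold change -0.33, SE 0.0865, adjusted p = 0.0196), and DESeq2 did not call it (adjusted p = 0.0757). *snRNP-U1-C*, which steadies the pairing of U1 with the splice site, had 204 and 228 counts, against 276 and 290 in >*bam* RNAi. Its log2 fold change of -0.13 (95% interval -0.43 to 0.17, adjusted p = 0.414) left both a small rise and a fall like that of *snRNP-U1-70K* within the interval. Neither fall was called once a >*bam* RNAi library was left out, which gave 0 of 3 either way, and without replicate 2 of >*bam* RNAi; *aramis* RNAi only that of *Prp40* was.

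The U2 group holds the U2 protein U2A, the U2AF pair that reads the end of the intron, and the SF3A and SF3B proteins that fix U2 on the branch point. Of its 10 genes, 7 fell and 3 were not called. *Sf3b3*, a scaffold protein of SF3B, had 835 and 790 counts in >*bam* RNAi; *aramis* RNAi, against 1610 and 1706 in >*bam* RNAi (log2 fold change -0.77, SE 0.0773, adjusted p = 5.3e-04). *Sf3a1* had 787 and 829 counts, against 1441 and 1540 in >*bam* RNAi (log2 fold change -0.62, SE 0.0777, adjusted p = 0.00104). These 2 genes kept their calls in every fit with a library left out, and were the only 2 of the group called without replicate 1 or without replicate 2 of >*bam* RNAi. *Sf3b5*, *U2A*, *Sf3b2* and *noi*, which encodes the third SF3A subunit, had log2 fold changes of -0.61, -0.57, -0.41 and -0.40. *Sf3b1*, the large SF3B subunit that encloses the branch-point helix, had 1752 and 1563 counts, against 2392 and 2453 in >*bam* RNAi, and a smaller fall of -0.29 (SE 0.0863, adjusted p = 0.0295). With DESeq2, *Sf3b1* and *Sf3b5* missed the threshold (adjusted p = 0.0595 and 0.0574), which left 5 of 10.

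Both U2AF genes were among those not called. *U2af50*, which binds the pyrimidine tract, had 1209 and 1136 counts in >*bam* RNAi; *aramis* RNAi, against 1451 and 1525 in >*bam* RNAi, a log2 fold change of -0.09 (95% interval -0.27 to 0.10, adjusted p = 0.385). *U2af38*, its partner at the end of the intron, had 432 and 412 counts, against 550 and 576 (log2 fold change -0.16, 95% interval -0.39 to 0.07, adjusted p = 0.218). *Sf3b6*, whose protein touches the branch-point adenosine, was the third. It had 1052 and 1042 counts, against 1216 and 1446 in >*bam* RNAi (log2 fold change -0.08, 95% interval -0.27 to 0.10, adjusted p = 0.406). The lower ends of these intervals are shallower than the fitted falls of *Sf3b3* and *Sf3a1*. With library totals in place of TMM all 3 passed the threshold as lower, at -0.28, -0.35 and -0.28 for *U2af50*, *U2af38* and *Sf3b6*.

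In the U4/U6.U5 tri-snRNP, 4 of 7 genes fell. *Prp8*, the protein that cradles the catalytic RNA, gave the most counts of all 35 genes, with 4815 and 4716 in >*bam* RNAi; *aramis* RNAi, against 9125 and 9740 in >*bam* RNAi. Its log2 fold change of -0.73 (SE 0.0842, adjusted p = 8.2e-04) held in every fit with a library left out. *l(3)72Ab*, now named *Brr2*, encodes the helicase that unwinds U4 from U6 and binds Prp8. It had 2978 and 2734 counts, against 4036 and 4304 in >*bam* RNAi, a smaller fall of -0.29 (SE 0.0796, adjusted p = 0.0229). *Prp3* and *Prp31*, both bound to the U4/U6 part of the particle, had log2 fold changes of -0.39 (adjusted p = 0.0101) and -0.35 (adjusted p = 0.0357). *Prp31* was not called by DESeq2 (adjusted p = 0.116) or without the filter on low counts (adjusted p = 0.0564). *U4-U6-60K*, *Prp6* and *Prp38* were not called, at -0.21 (95% interval -0.43 to 0.02), -0.15 (-0.42 to 0.11) and -0.13 (-0.43 to 0.16). *Prp38*, which in yeast is needed to activate the assembled spliceosome, had 313 and 373 counts in >*bam* RNAi; *aramis* RNAi, against 413 and 490 in >*bam* RNAi, and its libraries overlapped once scaled. With library totals all 3 were called lower, and with upper-quartile scaling *U4-U6-60K* was (adjusted p = 0.0498). Leaving out either >*bam* RNAi library left *Prp8* as the 1 call of the group, and leaving out replicate 2 of >*bam* RNAi; *aramis* RNAi left 2.

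The remaining 5 genes act when the catalytic center forms and in the second step of splicing, and 3 of them fell. *Bx42*, the fly SKIP protein, had 904 and 955 counts in >*bam* RNAi; *aramis* RNAi, against 1684 and 1614 in >*bam* RNAi (log2 fold change -0.57, SE 0.0928, adjusted p = 0.00289). *Prp19*, a ubiquitin ligase that gives its complex its name, had 626 and 642 counts, against 1127 and 1092 (log2 fold change -0.55, SE 0.0971, adjusted p = 0.00396). *crn* (*crooked neck*), a scaffold of the same complex, fell by 0.32 on the log2 scale (adjusted p = 0.0213) and was not called by DESeq2 (adjusted p = 0.0884). The second-step factors *Slu7* and *Prp18* were not called. *Slu7*, which in yeast positions the splice site at the end of the intron, had 387 and 499 counts, against 690 and 671 in >*bam* RNAi, a log2 fold change of -0.36 (95% interval -0.71 to -0.02, adjusted p = 0.0740). Upper-quartile scaling and library totals each placed *Slu7* past the threshold (adjusted p = 0.0433 and 0.00917), as did leaving out replicate 2 of >*bam* RNAi; *aramis* RNAi. *Prp18* had 124 and 113 counts in >*bam* RNAi; *aramis* RNAi, against 111 and 161 in >*bam* RNAi, the only positive log2 fold change of the set at 0.07 (95% interval -0.40 to 0.54, adjusted p = 0.800). Its sign turned to -0.12 with library totals and also without replicate 1 of >*bam* RNAi. Leaving out that library gave 0 of 5 calls, leaving out replicate 2 of >*bam* RNAi gave 2, *Prp19* and *Bx42*, and leaving out replicate 1 of >*bam* RNAi; *aramis* RNAi also gave 2.

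Near the threshold the order of the genes by adjusted p was *crn*, *l(3)72Ab*, *Sf3b1* and *Prp31* inside it, from 0.0213 to 0.0357, and *Slu7*, *U4-U6-60K*, *U2af38* and *Prp6* outside it, from 0.0740 to 0.279. The called genes had log2 fold changes from -0.35 to -0.29, and of those not called *U4-U6-60K*, *U2af38* and *Prp6* were at -0.21, -0.16 and -0.15. *Slu7*, at -0.36, broke this order, with an SE of 0.144.

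Ratios of TPM within a library need no scaling between libraries, and 12 of them were formed between groups and partners picked after the values above were seen. They restate those values on another scale and are given as descriptions. With 2 libraries against 2 an exact two-sided permutation test cannot go below p = 0.333, so no test of a difference was run. The Sm ring over the U2 group was 0.993 and 1.12 in >*bam* RNAi; *aramis* RNAi, against 1.47 and 1.52 in >*bam* RNAi. The SMN complex over the U2 group was 0.110 and 0.115, against 0.175 and 0.161 in >*bam* RNAi. *Smn* over *Gem3* was 2.04 and 1.85, against 2.92 and 3.06 in >*bam* RNAi. In each of these ratios the genotypes did not overlap, and the member named first was the one reduced more. The ratio of *Prp8* to *l(3)72Ab* was 1.46 and 1.55, against 2.04 in both >*bam* RNAi libraries, and that of *Sf3b3* to *Sf3b1* was 0.478 and 0.507, against 0.676 and 0.698. *SmG* over *SmD2* was 0.765 and 0.685, against 1.03 and 1.17 in >*bam* RNAi. The U2AF pair moved little, with *U2af38* over *U2af50* at 0.355 and 0.361, against 0.377 and 0.376 in >*bam* RNAi. *Prp40* over *Sf3b2* was the 1 ratio of the 12 that overlapped, at 0.706 and 0.750, against 0.727 and 0.760 in >*bam* RNAi. *Sf3b6* over *Sf3b1* was higher, at 2.84 and 3.15, against 2.40 and 2.78 in >*bam* RNAi.

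**Figure D4:**
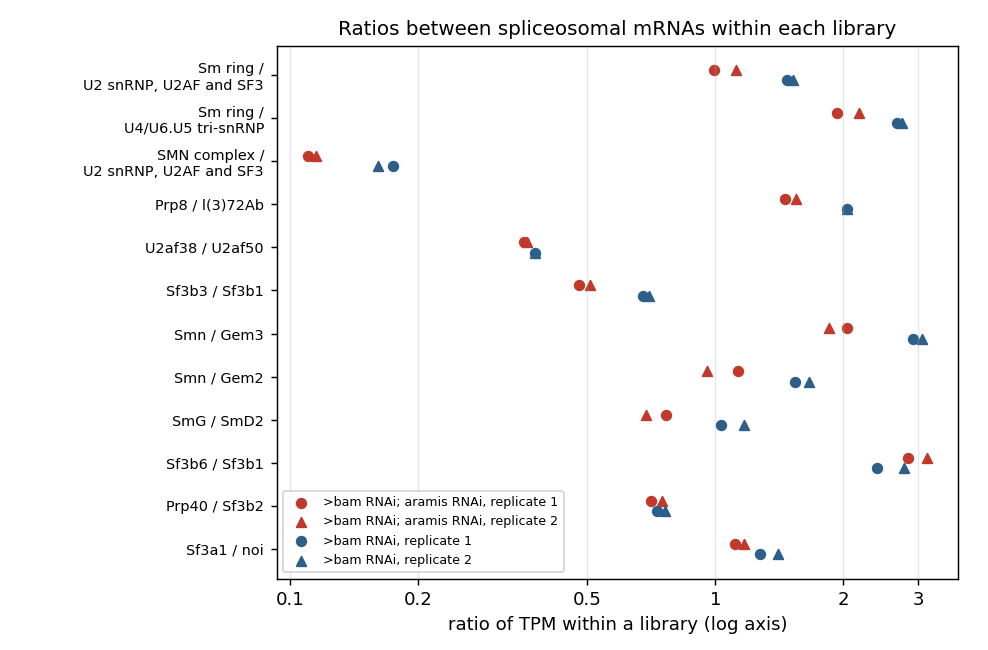
Ratios of TPM between spliceosomal mRNAs or summed groups within each library, on a log axis, with >*bam* RNAi; *aramis* RNAi in red and >*bam* RNAi in blue. The Sm ring over the U2 group lies at 0.993 and 1.12 in red, against 1.47 and 1.52 in blue, and *Prp40* over *Sf3b2* is the ratio whose colors overlap.

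All 35 genes were above the median TPM of annotated genes in each of the 4 libraries, a median that includes genes with too few counts to test. The median of genes tested was 35.9 and 32.8 TPM in >*bam* RNAi; *aramis* RNAi, against 39.5 and 37.1 in >*bam* RNAi. *Prp18*, *Prp6* and *Gem3* were below it in every library. Per length, *Sf3b6* was the highest in >*bam* RNAi; *aramis* RNAi at 230 ± 14.5 TPM, followed by *SmE* at 177 ± 20.7, *SmD2* at 154 ± 1.14 and *SmD3* at 151 ± 8.49 TPM (SD, n = 2 each). In >*bam* RNAi the order began with *SmF* at 306 ± 22.2, *SmE* at 305 ± 19.5, *SmG* at 273 ± 14.2 and *Sf3b6* at 265 ± 4.71 TPM. *SmD2* and *SmD3* in the first list, and *SmF* and *SmE* and then *SmG* and *Sf3b6* in the second, differed by less than their spread. *Prp18* was the lowest in both genotypes, with 18.4 ± 2.24 TPM in >*bam* RNAi; *aramis* RNAi and 19.0 ± 2.99 TPM in >*bam* RNAi, and its neighbours *Gem3* and *Prp6* were at 20.0 ± 0.583 and 20.9 ± 0.474 TPM, against 33.3 ± 3.68 and 25.4 ± 2.11 TPM. *Smn* was 30th of the 35 levels in >*bam* RNAi; *aramis* RNAi, with 38.9 ± 3.90 TPM, and 18th in >*bam* RNAi, with 99.3 ± 7.75 TPM.

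Other genes of splicing were read from a list of 89 symbols, which came to 58 genes with a row in the count tables and 54 with enough counts to test. Of the 54, 27 fell and 3 rose, where 25.0% of all genes tested were lower and 25.4% higher. The median log2 fold change of the 54 was -0.43, and 0 of them were past 4-fold by edgeR. Without replicate 1 or replicate 2 of >*bam* RNAi, their median was -0.43 and -0.40. With library totals 43 were lower and 1 higher, in a fit that called 3346 of all genes tested lower and 1684 higher. Of 10 other assembly and import factors 5 fell, with *rigor mortis* (*rig*, the fly Gemin5) at 1248 and 1144 counts in >*bam* RNAi; *aramis* RNAi, against 2493 and 2741 in >*bam* RNAi (log2 fold change -0.87, adjusted p = 3.7e-04). *csul* and *vls*, which form the methyltransferase that modifies Sm tails, had 347 and 334 counts and 204 and 261 counts, against 727 and 765 and 515 and 490 in >*bam* RNAi, with log2 fold changes of -0.87 (adjusted p = 6.9e-04) and -0.86 (adjusted p = 0.00392). *csul* and *vls* are also known as genes of the germ plasm. Beyond the 3 largest falls, *icln*, which holds Sm proteins ahead of the SMN complex, was looked up after its value was seen. It had 309 and 346 counts, against 611 and 716 in >*bam* RNAi (log2 fold change -0.76, adjusted p = 0.00164). *rig* and *csul* were called in every fit with a library left out, though only narrowly without a >*bam* RNAi library.

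Of 11 genes listed as other snRNP core and LSm proteins 5 fell and 0 rose. The largest falls were in *Phf5a* (-0.93), *LSm7* (-0.72) and *Spx* (-0.52), where *Phf5a* and *Spx* encode SF3B subunits and *LSm7* a subunit of the ring on U6. *Phf5a* lost its call without either >*bam* RNAi library, at -1.08 without replicate 1 and -0.77 without replicate 2. The call of *LSm7* was not held by DESeq2 (adjusted p = 0.0962), RLE scaling (0.0511) or the fit without a filter on low counts (0.0631), nor without replicate 2 of >*bam* RNAi; *aramis* RNAi (0.187) or replicate 1 or 2 of >*bam* RNAi (0.292 and 0.133). Helicases and other factors differed more among themselves, with 8 of 17 lower and 2 higher. The rises were *Prp5*, the helicase that admits U2 to the branch point, with 1877 and 1558 counts in >*bam* RNAi; *aramis* RNAi, against 1615 and 1603 in >*bam* RNAi (log2 fold change 0.35, adjusted p = 0.0345), and *Prp16*, the helicase that remodels the spliceosome between its steps, with 2475 and 2316 counts, against 2264 and 2211 (log2 fold change 0.35, adjusted p = 0.0147). The raw counts of *Prp5* overlap between genotypes, and with library totals neither *Prp5* nor *Prp16* was called (log2 fold change 0.16 for both, adjusted p = 0.297 and 0.195). *Prp5* also missed the threshold with upper-quartile scaling (adjusted p = 0.0618). Both lost their calls without replicate 1 of >*bam* RNAi; *aramis* RNAi (adjusted p = 0.130 for *Prp5* and 0.0520 for *Prp16*), without replicate 1 of >*bam* RNAi (0.151 and 0.0630) and without replicate 2 of >*bam* RNAi (0.273 and 0.129). The largest falls of this group were *CG9667* (-0.72), *Usp39* (-0.63) and *CG10333* (-0.59). Of 12 SR and exon-definition proteins 6 fell, led by *x16* (-0.57), *Rnps1* (-0.51) and *SC35* (-0.48). The kinase *Doa*, which phosphorylates SR proteins, rose with 4653 and 4371 counts, against 3593 and 3681 in >*bam* RNAi (log2 fold change 0.57, adjusted p = 0.00179). *Doa* lost its call without replicate 2 of >*bam* RNAi (log2 fold change 0.51). In the exon junction complex, left on mRNAs after splicing, *mago*, *tsu* and *eIF4A3* fell by 0.65, 0.60 and 0.53 on the log2 scale, and *btz* was at 0.01 (adjusted p = 0.935). The genes *LSm4*, *CG6015*, *Gem6* and *Tgs1* had 0 counts in all 4 libraries and were not tested. Whether they lack mRNA or lost their reads in counting was not tested, so 0 counts are not read as absence.

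**Figure D5:**
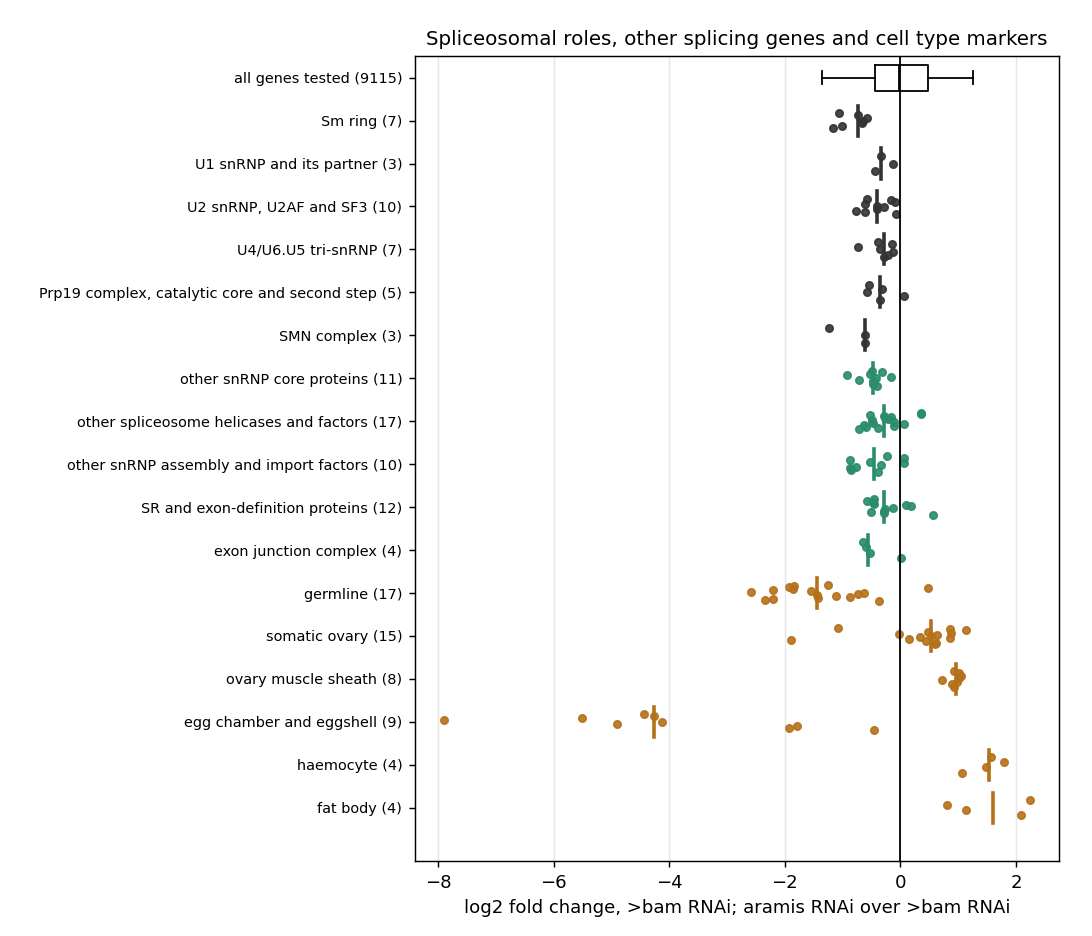
Log2 fold changes, >*bam* RNAi; *aramis* RNAi over >*bam* RNAi, for all genes tested (box, quartiles; whiskers, central 90%), the 6 roles (black), other splicing genes (green) and cell type markers (brown), with the number of genes in parentheses and vertical ticks at medians. The roles have medians from -0.29 for the tri-snRNP to -0.74 for the Sm ring, against -1.45 for germline markers and -0.02 for all genes.

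The 35 genes lie on every large chromosome arm of dm6, with 7 on 2L, 6 on 2R, 11 on 3L, 7 on 3R and 4 on X. *Smn* is on the minus strand of 3L from 16580398 to 16581547, and its exons overlap no other gene. *Prp8* (12154258 to 12162998), *SmD3* (12168731 to 12170003) and *SmF* (12183844 to 12184310) lie within 30.1 kb of each other on 2R. Their log2 fold changes were -0.73, -0.64 and -1.01. They were picked out with their calls known, and whether position bears on the falls was not tested. *Prp40* and *Sf3b2* on 2L run toward each other and share 188 bases, and their log2 fold changes were -0.44 and -0.41. In all, 16 members have exons that overlap another gene, of which 1, *Sf3b3*, does so on its own strand, with *lncRNA:CR45184*, a gene of 1 and 0 counts in >*bam* RNAi; *aramis* RNAi and 0 and 0 in >*bam* RNAi. The strand setting of the read counting is not given in the sources used here, so reads of overlapping genes on opposite strands could not be parted.

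The exon length of the 35 genes had a median of 1757 bases, from 370 bases for *Sf3b5* to 7442 for *Prp8*. Of the 35, 9 have no annotated intron of their own. These 9 had log2 fold changes from -1.01 to 0.07, with a median of -0.40, and the other 26, which need splicing themselves, from -1.23 to -0.08, with a median of -0.50. Genes with and without introns thus covered much the same range. Across the 35 genes, Spearman's rho of the log2 fold change with the number of introns was -0.05 and with exon length 0.24, where it was 0.13 over 8911 tested genes with a length. With the mean TPM in >*bam* RNAi it was -0.46. These are descriptions across genes of the same 4 libraries, and the last one uses the >*bam* RNAi counts on both sides.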

How the data were processed

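Ovary mRNA-seq was analysed from 4 libraries, 2 for each genotype, grouped by the genotype in the sample labels. The authors deposited whole-number counts of reads per gene, without normalization, for 17023 FlyBase identifiers per library. The submitters' processing notes name dm6, HISAT2 2.1.0, featureCounts 1.4.6 and DESeq2 1.24.0, and the strand setting, the annotation release and the treatment of multiply mapped reads are not given in the sources used here. A floor of 3 counts corresponds to 0.252 and 0.241 CPM in >*bam* RNAi; *aramis* RNAi and 0.248 and 0.225 in >*bam* RNAi, and covers counting error only, since PCR copies are not separated. Replicates differed by more than sampling noise (chi-square per degree of freedom 15.4 and 27.2). Nothing says whether replicates are separate dissections, so p-values measure the spread between these libraries, which may be technical.

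The test was the 2-sided quasi-likelihood test of edgeR 4.0.16 (R 4.3.3) after TMM and the default filter on low counts (minimum count 10), with no block and Benjamini-Hochberg adjustment over 9115 genes. An adjusted p under 0.05 was a call, and changes over 4-fold were counted apart. Standard errors and 95% intervals are those implied by the F statistic. The functions were tested on simulated counts. TPM used the union of exons in Ensembl release 115, which matched 16647 identifiers. The other 376, with 6.14% to 6.32% of counts, were left out of TPM and kept in the tests. Python 3.11.15, pandas 2.3.3, numpy 2.4.6 and matplotlib 3.10.9 were used for tables and figures.

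Alternatives were DESeq2 1.42.0, RLE and upper-quartile scaling, a replicate block, every gene of at least 1 count, each library left out in turn, the longest transcript and, added after the data were seen, library totals without scaling. Members, roles, pathway lists and markers were chosen with earlier results of these data known, so no test over a list was made. All members were named, and of other lists up to 3 rises and 3 falls, with exceptions stated. Of the 89 other symbols, 6 were second names and 25 matched no row. Among these 25, *hoip*, *SF2* and *SRPK* have a current identifier that the count tables lack. A symbol without a row is not read as a gene without mRNA. Of the 18 germline markers listed, 1 (*vas*) has a current identifier that the count tables lack. The same held for 1 muscle sheath marker (*wupA*) and 1 fat body marker (*FASN1*). Sequences were not used here.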

Additional observations from a re-analysis of the deposited data

How the results depend on the processing

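Of the 26 genes called lower, 21 were also called under each of DESeq2, RLE and upper-quartile scaling, no filter on low counts, the replicate block and library totals. DESeq2 called 21 and the unfiltered fit 25. No member was called higher or past 4-fold under any setting. Apart from leaving out a library, 194 of 210 single-gene results kept direction and call, 9 passed the threshold only under the alternative, 6 only in the reported fit, and 1 changed sign. That was *Prp18*, at -0.12 with library totals (adjusted p = 0.619) and also at -0.12 without replicate 1 of >*bam* RNAi (adjusted p = 0.624). With a library left out, 42 of 140 single-gene results lost their call. The 140 include the results of 9 genes that had no call to lose, and most losses came from leaving out a >*bam* RNAi library. With a library left out, the log2 fold change of *Prp18* ranged from -0.12 to 0.28. Calls of members as lower ranged from 8 to 23, of all genes from 1243 to 3715, of all genes as lower from 558 to 1724 and of all genes as higher from 685 to 1991. With 2 libraries per genotype, the estimate of the spread rests on few values, and a member that was not called may still differ within its interval. Genotypes share replicate numbers, but the correlation of same-numbered deviations across genes was 0.03, so the numbers were not taken to pair libraries. Under the replicate block 26 members and 4430 genes were called.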
